A study of Mus musculus with 18 samples.

Results

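The tubulin genes described here were 10 isotypes, the beta-tubulins Tubb6, Tubb5, Tubb2a, Tubb2b and Tubb3 and the alpha-tubulins Tuba1a, Tuba1b, Tuba1c, Tuba4a and Tuba8. Their members were all probesets of the mouse MOE430A and MOE430B oligonucleotide arrays that the platform annotation assigns to any of the 10 genes, which gave 19 of 45037 probesets. Of these, 16 were above the intensity filter (33752 of all probesets were). The genes were selected with the changes of Tubb6 and Tubb5 in these same pools known. Their differences from C at 24 h and at 10 D, over the 3 groups and between 10 D and 24 h are therefore descriptions. This holds also where the fit over all probesets called one of them.

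The tissue was gracilis, a hind limb muscle of mixed fibre type, of male C57BL/6J mice of 3 to 5 weeks of age. Clenbuterol, an agonist of the β2-adrenergic receptor that enlarges skeletal muscle, was injected intraperitoneally at 1 mg/kg body weight. The 24 h group received 9 daily injections of vehicle and then 1 of clenbuterol, the 10 D group received 10 daily injections of clenbuterol, and the control group (C) received 10 of vehicle. Every mouse was therefore handled and injected on 10 days, and muscle was taken a day after the last injection. Each group held 3 pools, each made of RNA from 3 mice, and the mice had been selected from a larger set for weight gain and blood urea nitrogen, which means that the pools were not a random draw of treated and control animals. Each pool was hybridised to 1 array of each type, 18 arrays in all, and the replicate is the pool. A level below is a probeset's mRNA signal as a multiple of its array's median, a log2 change is a difference of mean log2 levels, and ± gives the SD over 3 pools. Array medians ran from 30.8 to 88.4 signal units on MOE430A and from 13.2 to 37.1 on MOE430B, and the number of pools limits the precision of all values.

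Microtubules are hollow polymers of alpha- and beta-tubulin dimers that carry motor-driven transport, position nuclei and set the shape of the cell. In skeletal muscle fibres they form a lattice under the membrane and around the nuclei, and they are rebuilt when myoblasts fuse and fibres regenerate. Mammals make each subunit from several genes with nearly identical proteins, the isotypes, which are expressed in different tissues, and a cell degrades tubulin mRNA on the ribosome when free tubulin dimers are in excess. Because the genes are so alike, a probeset can detect more than 1 of them. The array's maker marks with _s_at or _a_at a probeset shared by several transcripts and with _x_at one that may also bind unrelated ones, and such probesets are named with their suffix here.

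Tubb6 showed the largest difference of the 10 genes. Tubb6 encodes beta 6 tubulin, an isotype known in mice to be raised in regenerating and dystrophic fibres. Probeset 1416431_at had levels of 14.1, 5.71 and 9.66 in the 24 h pools, 1.09, 0.357 and 0.884 in the 10 D pools, and 0.419, 0.189 and 0.245 in the C pools. Every 24 h pool was above every 10 D and every C pool, and the 10 D and C pools overlapped, with only 10 D pool 2 inside the range of C. The means were 9.81 ± 4.18 at 24 h, 0.777 ± 0.378 at 10 D and 0.285 ± 0.120 in C. The log2 change at 24 h against C was 5.09 (SE 0.49, 95% confidence interval 4.01 to 6.18), which is 34.2-fold, and 18.0-fold with 0.25 added to every level. In pooled tissue, fewer or more cells of a type cannot be told apart from less or more mRNA per cell.

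The size of that fold rests on a dim level in C. The Tubb6 signals before scaling were 873.4, 203.9 and 493.8 in the 24 h pools, 96.3, 12.0 and 41.2 in the 10 D pools, and 12.9, 12.3 and 10.5 in the C pools, while the filter lay at a mean signal of 14.1 on this array type. All 3 C pools and 10 D pool 2 were thus below the filter, and the probeset passed it only through the other pools. The C signals stayed within 10.5 to 12.9 although the medians of the 3 C arrays ran from 30.8 to 64.95. With every signal below the filter raised to it, an alternative chosen after seeing the data, the fitted fold at 24 h against C was 28.8, and with 0.25 added to every level it was 18.0 (log2 change 4.17). Among all probesets of its array it lay at percentiles of 87.5 to 93.6 at 24 h, 26.9 to 51.9 at 10 D and 18.5 to 29.2 in C.

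The other Tubb6 probeset did not show this difference. Probeset 1446353_at, on MOE430B, had levels of 4, 3.25 and 3.22 in the 24 h pools, 3.23, 2.84 and 4.26 in the 10 D pools, and 3.59, 2.41 and 2.29 in the C pools. The 3 groups overlapped, with a log2 change of 0.36 (95% confidence interval -0.20 to 0.92) at 24 h and of 0.33 (-0.23 to 0.88) at 10 D against C. The interval at 24 h leaves out the change of 1416431_at. The part of the transcript that each probeset detects was not examined here, so which of the pair stands for the Tubb6 mRNA of the muscle was not tested.

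Tubb5 encodes the beta-tubulin that most dividing and many resting cells make. Probeset 1416256_a_at had levels of 12.7, 13.2 and 13.1 in the 24 h pools, 6.85, 5.96 and 7.57 in the 10 D pools, and 5.47, 5.67 and 5.19 in the C pools. The order was 24 h, 10 D and C with no overlap between any groups, and pools of 1 group were close, with means of 13 ± 0.223, 6.79 ± 0.808 and 5.44 ± 0.242 in that order. The log2 change against C was 1.26 (SE 0.18) at 24 h, 2.39-fold, and 0.31 (95% confidence interval -0.09 to 0.72) at 10 D. As for Tubb6, a further probeset of the gene went differently. Tubb5 1455719_at had levels of 5.32, 4.28 and 3.81 in the 24 h pools, 2.51, 4.82 and 4.27 in the 10 D pools, and 5.02, 4.71 and 4.40 in the C pools, all overlapping, with log2 changes against C of -0.09 (-0.69 to 0.51) at 24 h and -0.34 (-0.94 to 0.26) at 10 D.

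Tubb2a and Tubb2b are a neighbouring pair of genes on chromosome 13 and encode the main beta-tubulins of neurons, Tubb2a also being made in other tissues. Tubb2a 1427347_s_at had levels of 2.99, 3.50 and 2.58 in the 24 h pools, 0.992, 2.54 and 1.46 in the 10 D pools, and 1.03, 1.13 and 1.21 in the C pools. All 24 h pools were above all C pools, whereas the 10 D pools were below the 24 h pools and overlapped C, pool 2 lying just under the lowest 24 h pool and pool 1 below C. The log2 change against C was 1.42 (SE 0.32) at 24 h, 2.67-fold, and 0.46 (95% confidence interval -0.26 to 1.18) at 10 D. The probeset's suffix allows it to detect a sister transcript as well. Tubb2b 1452679_at was dim, with levels of 0.507, 0.686 and 0.519 in the 24 h pools, 0.260, 0.658 and 0.403 in the 10 D pools, and 0.458, 0.396 and 0.339 in the C pools. Its 24 h pools were above its C pools by a narrow margin, with a log2 change of 0.52 (-0.43 to 1.47), and its 10 D pools overlapped both, with a change against C of 0.06.

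Of the 19 tubulin probesets, 3 were below the filter and have no log2 change here. Tubb2a 1427838_at had levels of 0.123 to 0.391 in the 24 h pools, 0.0328 to 0.247 in the 10 D pools and 0.0421 to 0.123 in the C pools. Tubb2b 1449682_s_at, annotated also to the pseudogene Tubb2a-ps2, had levels of 0.0306 to 0.202, 0.0147 to 0.307 and 0.0537 to 0.321 in the same order of groups. Tubb3, the beta-tubulin that marks neurons, was represented by 1415978_at alone, with levels of 0.028 to 0.264 at 24 h, 0.0595 to 0.118 at 10 D and 0.0154 to 0.203 in C. In signals before scaling, Tubb3 did not exceed 16.4 in any pool, and no difference of Tubb3 was detectable at these intensities.

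**Figure D1:**
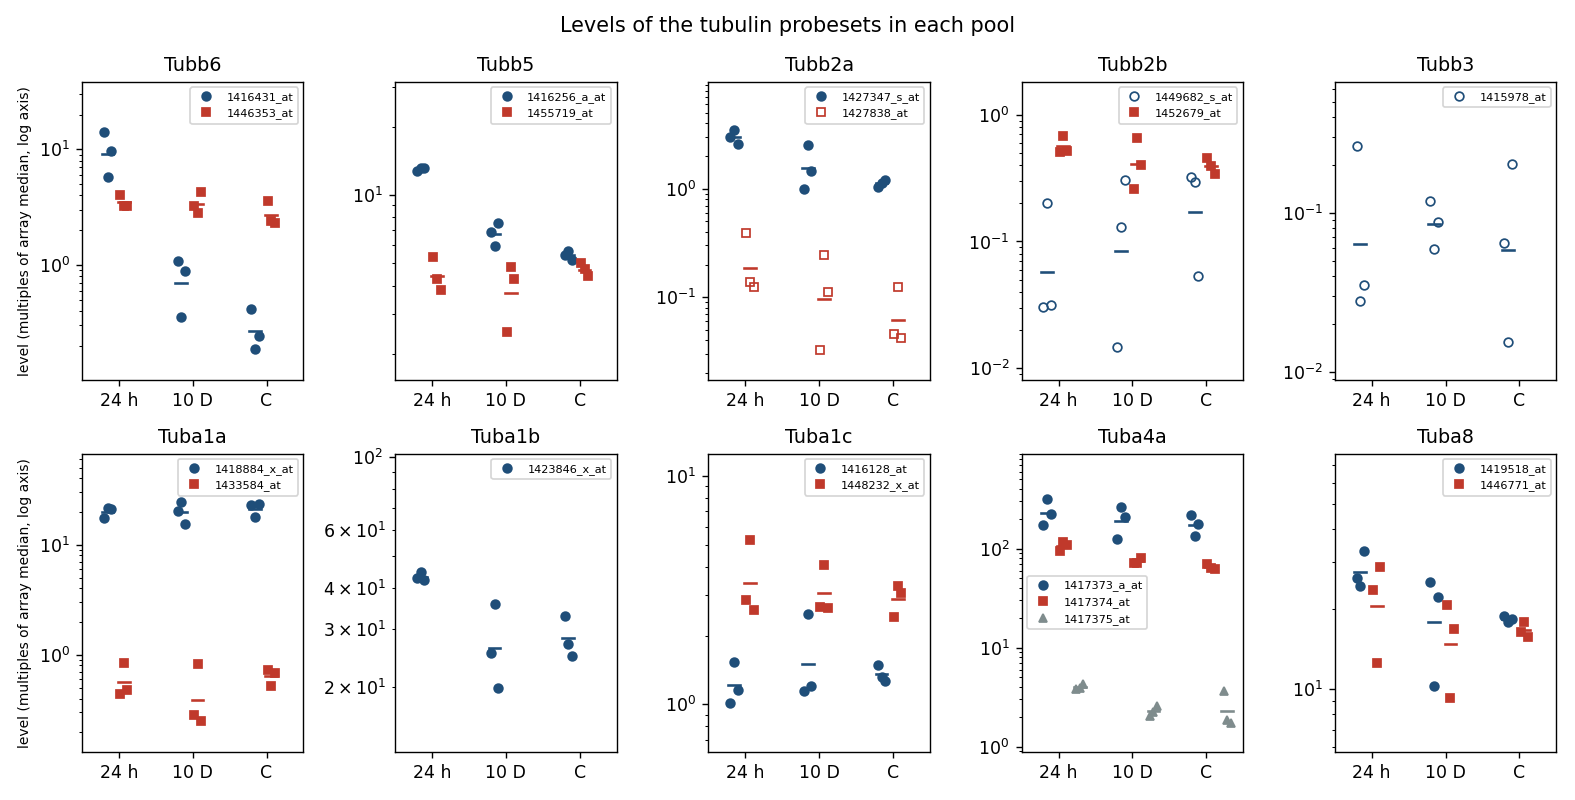
Level of each of the 19 tubulin probesets (multiples of the array median, log axis) in the 3 pools of the 24 h, 10 D and C groups, 1 panel per gene, with open markers for the 3 probesets below the intensity filter and a bar at the geometric mean of each group. Tubb6 1416431_at runs from 5.71 to 14.1 at 24 h and from 0.189 to 0.419 in C, while the other Tubb6 probeset, 1446353_at, overlaps among the 3 groups.

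Among the alpha-tubulins, Tuba4a and Tuba8 are the isotypes known for striated muscle, Tuba4a being the alpha-tubulin whose gene does not encode the C-terminal tyrosine. Tuba4a 1417374_at had levels of 95.1, 116 and 109 in the 24 h pools, 72.1, 71.3 and 80.8 in the 10 D pools, and 69.6, 63.8 and 61.6 in the C pools. The order was 24 h, 10 D and C without overlap, and the nearest 10 D and C pools were 71.3 and 69.6. The log2 change against C was 0.71 (95% confidence interval 0.31 to 1.12) at 24 h, 1.64-fold, and 0.20 (-0.21 to 0.61) at 10 D. Tuba4a 1417375_at also had 24 h pools above all others, with levels of 3.77, 3.94 and 4.29 at 24 h, 2.04, 2.23 and 2.58 at 10 D, and 3.60, 1.86 and 1.73 in C. Its C pool 1 lay close to the 24 h pools and its log2 change at 24 h was 0.82 (0.18 to 1.45).

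The brightest Tuba4a probeset did not separate the groups. Tuba4a 1417373_a_at had levels of 175, 320 and 222 in the 24 h pools, 126, 264 and 210 in the 10 D pools, and 218, 133 and 179 in the C pools, with a log2 change at 24 h of 0.42 (-0.31 to 1.15). This probeset was among the brightest of each array, at percentiles of 99.8 to 100, where the highest signal of any probeset was 17142.6. Before scaling its signals were 10879.5, 11416.1 and 11335.8 in the 24 h pools, 11166.8, 8865.9 and 9772.7 in the 10 D pools, and 6700, 8658.6 and 7661.4 in the C pools. Without scaling the 24 h pools of this probeset were above all C pools, and after scaling they overlapped. Array medians ran from 35.7 to 62.1 at 24 h and from 30.8 to 64.95 in C, so signals before scaling do not share a scale. Tuba4a 1417374_at went the other way, with 4139.5 in 24 h pool 2 and 4141.9 in C pool 2 before scaling. So did Tuba8 1419518_at, Tuba1b 1423846_x_at and Tubb2b 1452679_at, separated only after scaling. Tubb6 1416431_at, Tubb5 1416256_a_at, Tubb2a 1427347_s_at and Tuba4a 1417375_at were separated on both scales. Which scale is nearer to the mRNA was not tested.

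Tuba8 was measured by a probeset on each array type. Tuba8 1419518_at had levels of 26.3, 24.4 and 33.0 in the 24 h pools, 25.4, 10.2 and 22.2 in the 10 D pools, and 18.8, 17.8 and 18.4 in the C pools. The 24 h pools were above the C pools, and the 10 D pools lay on both sides of C, pool 2 being the lowest of the 9. The log2 change against C was 0.59 (95% confidence interval -0.11 to 1.30) at 24 h and -0.04 (-0.74 to 0.67) at 10 D. Tuba8 1446771_at had levels of 23.7, 12.5 and 28.9 in the 24 h pools, 20.8, 9.25 and 16.8 in the 10 D pools, and 16.4, 17.9 and 15.7 in the C pools, so that pool 2 was the lowest pool in both treated groups and the groups overlapped.

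Tuba1a, Tuba1b and Tuba1c lie together on chromosome 15 and encode alpha-tubulins that most cells make, Tuba1a above all in the developing brain. Tuba1b 1423846_x_at, annotated also to the gene model Gm5620, had levels of 42.8, 44.6 and 42.2 in the 24 h pools, 25.3, 35.8 and 19.9 in the 10 D pools, and 32.8, 27.1 and 24.9 in the C pools. The 24 h pools had an SD of 1.27 and were above all other pools, with a log2 change against C of 0.62 (95% confidence interval 0.09 to 1.15), and the 10 D and C pools overlapped. Tuba1a 1418884_x_at averaged 20.1 ± 2.27 at 24 h, 20.0 ± 4.42 at 10 D and 21.3 ± 2.89 in C, with log2 changes against C of -0.09 (-0.59 to 0.42) at 24 h and -0.11 (-0.61 to 0.40) at 10 D. The remaining 3 probesets of this cluster are all annotated also to Gm6682 and overlapped between every pair of groups. Their log2 changes at 24 h against C were -0.18 for Tuba1a 1433584_at, -0.16 for Tuba1c 1416128_at and 0.23 for Tuba1c 1448232_x_at, and at 10 D against C they were -0.72, 0.14 and 0.08 in the same order.

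The sequences before the transcription starts are shown for the 3 genes that, after Tubb6, had the largest changes at 24 h (Tubb2a and Tubb5) or the brightest signals (Tuba4a), because the receptor that clenbuterol binds acts through cyclic AMP. Each is the 250 bases before the RefSeq start on GRCm38.p6, written 5′ to 3′ on the strand of the gene. Capitals mark the cyclic AMP response element TGACGTCA or its short form TGACG, the CCAAT box and the TATA box TATAAA, found on either strand.
Tubb2a, chr13:34078009-34078258, minus strand: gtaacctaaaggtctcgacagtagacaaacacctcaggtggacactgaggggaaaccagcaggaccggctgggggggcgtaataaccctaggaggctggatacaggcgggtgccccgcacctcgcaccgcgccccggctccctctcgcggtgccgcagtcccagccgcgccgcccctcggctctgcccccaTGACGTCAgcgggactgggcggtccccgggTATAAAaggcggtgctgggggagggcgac
Tubb5, chr17:35838302-35838551, minus strand: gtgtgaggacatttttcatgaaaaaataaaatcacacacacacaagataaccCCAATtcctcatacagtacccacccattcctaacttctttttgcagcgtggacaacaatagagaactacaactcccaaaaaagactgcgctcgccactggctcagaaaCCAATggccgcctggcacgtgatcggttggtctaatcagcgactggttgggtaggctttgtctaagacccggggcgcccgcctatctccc
Tuba4a, chr1:75219295-75219544, minus strand: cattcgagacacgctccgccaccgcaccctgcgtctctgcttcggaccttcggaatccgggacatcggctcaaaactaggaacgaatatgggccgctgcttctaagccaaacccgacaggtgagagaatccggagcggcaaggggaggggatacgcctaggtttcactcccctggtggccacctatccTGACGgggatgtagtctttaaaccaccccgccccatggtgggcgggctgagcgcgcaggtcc
Tubb2a held a full cyclic AMP response element, whose first base lies 59 bases before the start, and a TATA box 29 bases before it. The full element reads the same on both strands and contains the short form on each. Of 32841 mouse promoter windows of the same length, 1.55% held the full element, 17.8% the short form and 12.4% the TATA box. Tuba4a held a short form 62 bases before the start and no TATA box in these letters. Tubb5 held neither form of the element but a pair of CCAAT boxes, 198 and 90 bases before the start, which 33.9% of all windows held at least once, and the E box CACGTG, which 6.02% held. The GC box GGGCGG was found in Tubb2a and Tuba4a, also in Tubb3, Tuba1a and Tuba1b, and in 32.7% of all windows. Windows were matched for 8 of the 10 genes, not for Tubb6 or Tubb2b. Among the other 5 genes, Tuba1c held a short form and none held the full element. Tubb3, Tuba1a and Tuba1c of these held a CCAAT box, and Tuba8 held the E box. No window of the 8 held a CArG box, the site of serum response factor, which 1.47% of all windows held. A match is a match of letters, and binding was not measured.

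Counted over the 16 tubulin probesets above the filter, 2 were called higher at 24 h than in C at an adjusted p under 0.1 in limma with Benjamini-Hochberg adjustment over all 33752 probesets (Tubb6 1416431_at and Tubb5 1416256_a_at), where 0.329% of all probesets were called higher, and 0 were called lower, where 0.127% of all were. The same 2 were called by the F test over the 3 groups, which called 0.216% of all. Both genes had entered the selection through these comparisons, so nothing is read from the counts. At 24 h against C the call of Tubb6 was absent when each gene was represented by its brightest probeset, and that of Tubb5 was lost when any 1 of the 24 h pools or of the C pools was left out. In 8 of the 16 probesets all 24 h pools were above all C pools, which held for 9.6% of all probesets, and in 0 were all 24 h pools below, which held for 7.23%. The probeset Tubb6 1416431_at passed the filter through its treated pools, and several genes are counted more than once, so these counts too are descriptions. The median log2 change was 0.47 with 12 positive and 4 negative. Over all probesets above the filter the median was 0.02 and 51.8% of the changes were positive.

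**Figure D2:**
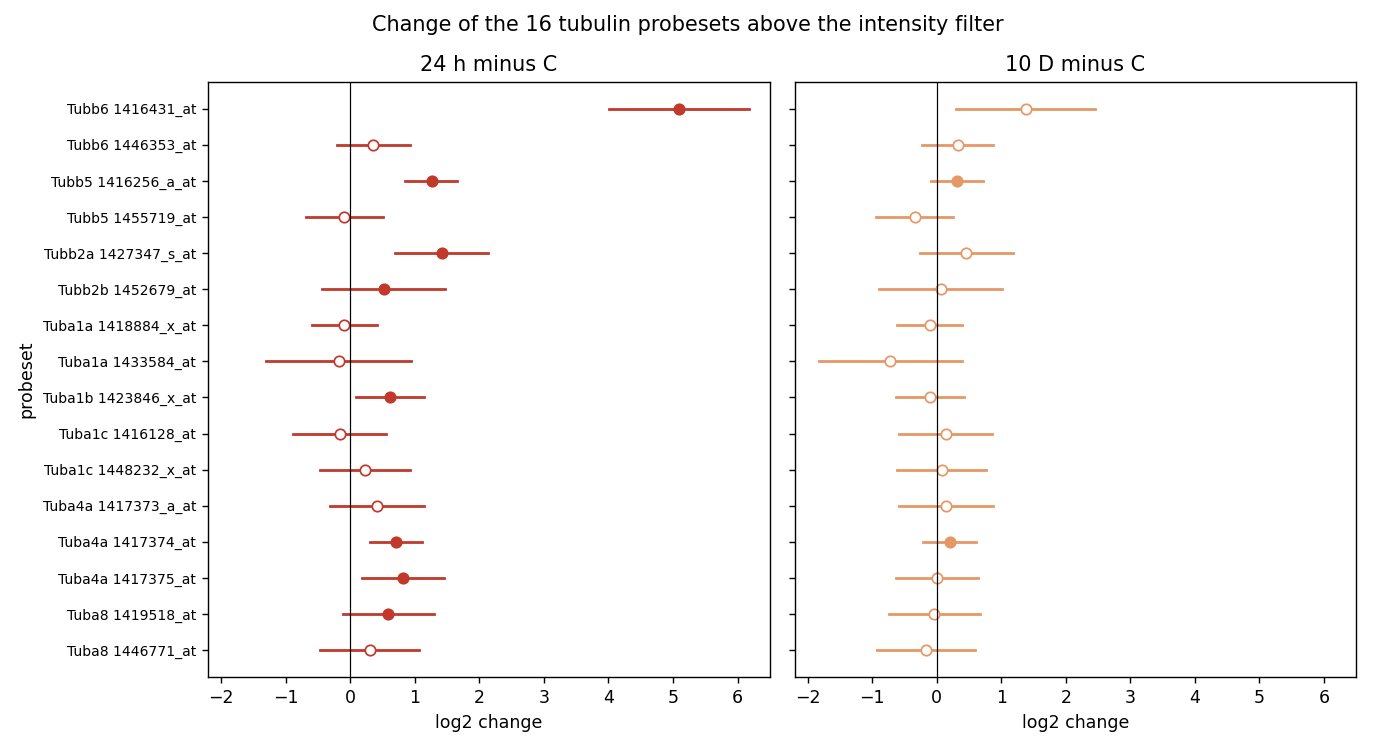
Log2 change and 95% confidence interval from limma of the 16 tubulin probesets above the filter, 24 h minus C at left and 10 D minus C at right, with filled points where the 3 treated and 3 C pools do not overlap. At 24 h 8 points are filled and all 8 lie above 0, and at 10 D 2 are filled, Tubb5 1416256_a_at at 0.31 and Tuba4a 1417374_at at 0.20.

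At 10 D no tubulin probeset was called against C. Of the 16, 0 were called higher or lower, as was true of 0% of all probesets in either direction, every adjusted p from limma was 1, and the unadjusted p was under 0.05 for 1 of the 16 (Tubb6 1416431_at, log2 change 1.38, 95% confidence interval 0.30 to 2.46) and for 1540 of all 33752 (4.56%). All 10 D pools were above all C pools for 2 of the 16, Tubb5 1416256_a_at and Tuba4a 1417374_at, where this held for 5.76% of all, and for 0 were all 10 D pools below, where this held for 4.52%. The median log2 change was 0.07, against 0.01 over all probesets above the filter. The genes had been selected with changes in these pools known, so these values too are descriptions.

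Set against 24 h directly, most tubulin probesets had negative log2 changes at 10 D. For 6 of the 16 tubulin probesets all 10 D pools were below all 24 h pools, where this held for 5.1% of all. Of the 16 log2 changes, 15 were negative, where 17236 of all 33752 were, with a median of -0.49, against -0.01 over all. The exception was Tuba1c 1416128_at, at 0.31 (95% confidence interval -0.41 to 1.03). The 6 were Tubb6 1416431_at, with 10 D minus 24 h at -3.71, Tubb5 1416256_a_at at -0.94, Tubb2a 1427347_s_at at -0.96, Tuba1b 1423846_x_at at -0.72, and Tuba4a 1417375_at and 1417374_at at -0.81 and -0.51. Tubb6 was called, 1 of 16 called lower where 0.0356% of all were. This call and the other values of this comparison are descriptions only, since it uses the 24 h pools through which the genes had been selected.

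Pools of 1 group did not vary alike across the tubulins. The levels of pool 2 in the 24 h and 10 D groups departed from their groups in a similar way over all probesets of MOE430A, with a correlation of 0.56 between the departures, across probesets that are not independent, and of 0.16 on MOE430B. For 8 of the 16 tubulin probesets (50%) pool 2 was above the group mean in both treated groups, where this held for 31.6% of all probesets, while for both Tubb6 and both Tuba8 probesets and for Tuba4a 1417375_at it was below in both. For Tubb6 1416431_at pool 2 departed by -0.69 at 24 h and by -0.97 at 10 D on the log2 scale, and for Tubb2a 1427347_s_at by 0.22 and 0.72 in those groups. With both treated pools numbered 2 left out, also chosen after seeing the data, the log2 changes at 24 h against C of Tubb6 1416431_at and Tubb5 1416256_a_at were 5.44 and 1.25, and that of Tubb2a 1427347_s_at was 1.31.

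The genes whose pattern over the 9 pools was most like that of Tubb6 1416431_at were not tubulins. By the root mean square difference of log2 levels centred on their own mean, the 5 nearest of 26743 probesets with 1 gene symbol were Tnfrsf12a 1418571_at (0.40) and 1418572_x_at (0.62), Cdkn1a 1421679_a_at (0.66) and 1424638_at (0.72), and Lcn2 1427747_a_at (0.97). Tnfrsf12a is the receptor of the cytokine TWEAK, Cdkn1a encodes the cell cycle inhibitor p21, and Lcn2 encodes the iron-siderophore carrier lipocalin 2. Tnfrsf12a 1418571_at had levels of 29.1, 19.7 and 25.9 in the 24 h pools, 2.09, 0.527 and 2.18 in the 10 D pools, and 0.718, 0.651 and 0.668 in the C pools. Like Tubb6 it had its lowest 10 D value in pool 2. The other tubulin probesets differed from Tubb6 1416431_at by 1.71 to 2.41 on this measure, the nearest being Tubb5 1416256_a_at at 1.71, rank 189 of 33751, and Tubb2a 1427347_s_at at 1.79, rank 356. Tubb6 1446353_at was at 2.08, rank 4591. The measure weighs the size of a change, and the 9 pools fall into 3 groups, so it mostly ranks probesets by a similar difference at 24 h.

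**Figure D3:**
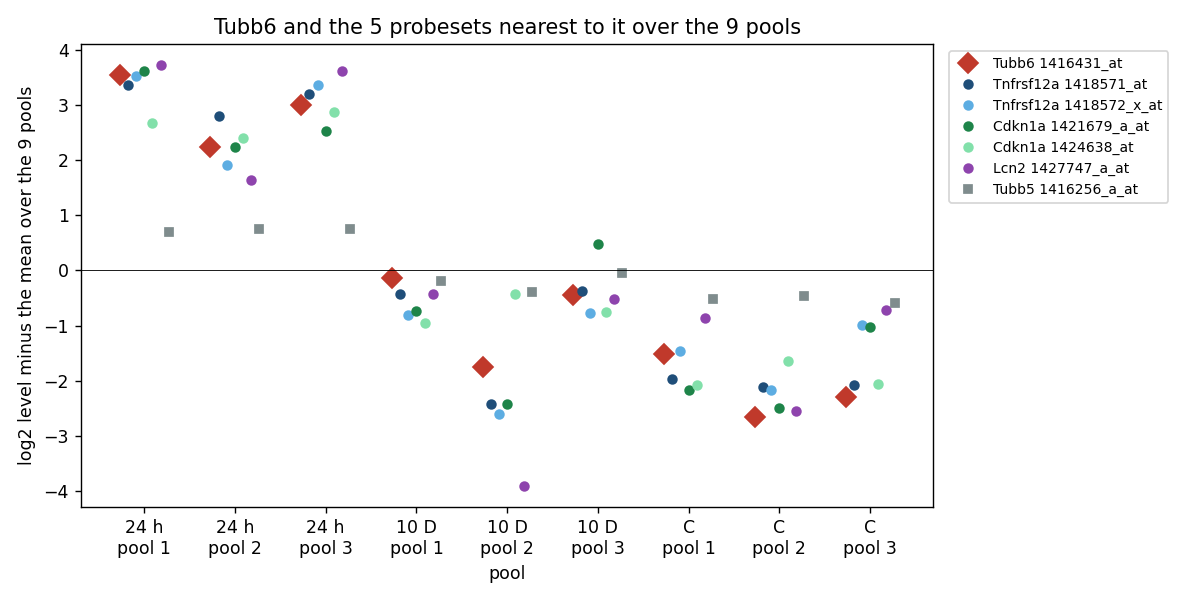
Log2 level of Tubb6 1416431_at (diamonds), of the 5 probesets nearest to it (circles) and of Tubb5 1416256_a_at (squares) in the 9 pools, each minus its own mean over the pools. The nearest probeset, Tnfrsf12a 1418571_at, differs from Tubb6 by 0.40 on average (root mean square), Tubb5 by 1.71.

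The other genes of the microtubule system showed no call. Of the 8 further tubulin genes on the arrays, each taken at its brightest probeset, 7 were above the filter and 0 were called at 24 h or at 10 D against C, with 1 and 0 at an unadjusted p under 0.05, where 8.55% of all probesets were at 24 h and 4.56% at 10 D. Their median log2 change was 0.19 at 24 h and 0.22 at 10 D. That 1 was Tubb4b, a beta-tubulin that most tissues make. Tubb4b 1423642_at had levels of 34.7, 20.9 and 32.1 in the 24 h pools, 19.6, 8.10 and 17.7 in the 10 D pools, and 10.2, 11.6 and 12.8 in the C pools. All its 24 h pools were above its C pools, with a log2 change of 1.32 (95% confidence interval 0.56 to 2.07, adjusted p = 0.22 in limma), and its 10 D pools overlapped the C pools. The other Tubb4b probesets above the filter ran from -0.41 to 0.91 at 24 h, so that probesets of this gene differed too.

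Proteins that fold, modify, bind or move along microtubules were described in 5 lists, and 0 of their 87 genes above the filter were called in either comparison with C. Of 9 folding cofactors and autoregulation genes, 0 had an unadjusted p under 0.05 at 24 h or 10 D, and the median log2 change was 0.19 at 24 h and -0.02 at 10 D. The largest change was that of Ttc5, which in human cells recognises new tubulin chains and starts the decay of their mRNA, with 0.59 at 24 h (adjusted p = 0.81 in limma). Of 15 subunits of the CCT chaperonin and of prefoldin, which fold tubulin and actin, 1 had an unadjusted p under 0.05 at 24 h and 0 at 10 D, with a median log2 change of 0.03 at 24 h. The largest change was that of Pfdn6, 0.81 at 24 h (adjusted p = 0.66), and it rested on pool 3, with levels of 8.92, 12.3 and 33.2 in the 24 h pools against 8.04, 9.52 and 8.78 in the C pools.

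Of 17 tubulin modifying enzymes, 1 had an unadjusted p under 0.05 at 24 h and 1 at 10 D. The largest change was that of Ttll1, a subunit of a tubulin polyglutamylase, with levels of 1.17, 1.70 and 1.18 in the 10 D pools against 0.607, 0.739 and 0.687 in the C pools and a log2 change of 0.98 (adjusted p = 1 in limma). Of 23 microtubule binding, plus end and severing proteins, 1 had an unadjusted p under 0.05 at 24 h and 2 at 10 D. Map1b, a microtubule-associated protein of growing axons, had levels of 0.807, 0.164 and 0.303 in the 10 D pools against 1.07, 1.72 and 1.10 in the C pools, with a log2 change of -1.89 (adjusted p = 1). Of 23 motor subunits, 3 had an unadjusted p under 0.05 at 24 h and 1 at 10 D, where 8.55% and 4.56% of all probesets had one. Kif1b, a kinesin of mitochondria and vesicles, had the largest change, -1.12 at 24 h (adjusted p = 0.66). Over the 5 lists the medians lay between -0.16 and 0.19 at 24 h and between -0.02 and 0.08 at 10 D, where those of all probesets were 0.02 and 0.01.

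**Figure D4:**
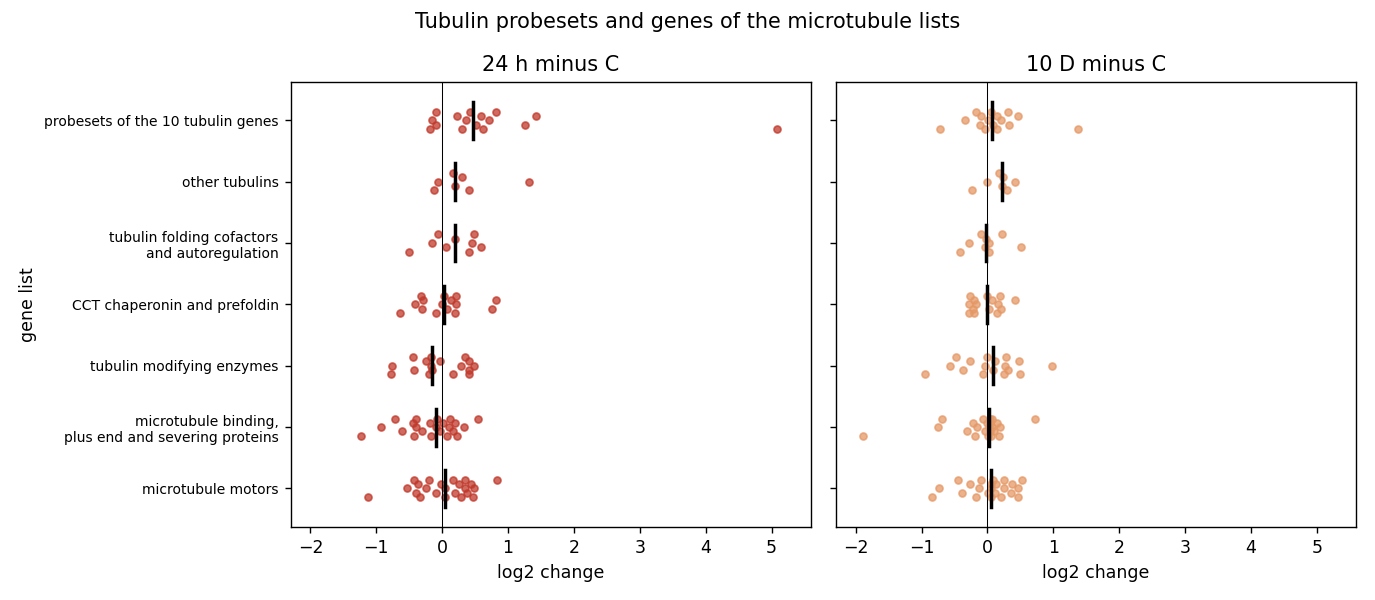
Log2 change of the 16 tubulin probesets above the filter and of the genes of 6 microtubule lists (1 point per gene, brightest probeset), 24 h minus C at left and 10 D minus C at right, with a bar at each list's median. The tubulin probesets have a median of 0.47 at 24 h, with Tubb6 1416431_at at 5.09, and the medians of the 6 lists lie between -0.16 and 0.19.

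Markers of the cell types in the muscle were summed over lists. The 12 muscle fibre genes were all above the filter, with a summed level of 2010 to 2990 at 24 h, 1790 to 3060 at 10 D and 2330 to 3750 in C, and 0 were called. Their log2 changes against C were negative for 11 genes at 24 h and for 12 at 10 D. The medians were -0.23 and -0.24, against 0.02 and 0.01 over all probesets, and 0 had an unadjusted p under 0.05 in limma. Of 9 satellite cell and myoblast markers, all above the filter, 1 was called higher at 24 h, where 0.329% of all probesets were, and 0 at 10 D. It was Myog, myogenin, named here after its values were seen, with levels of 9.11, 10.1 and 6.53 in the 24 h pools, 1.31, 2.98 and 2.58 in the 10 D pools, and 2.31, 1.54 and 2.36 in the C pools (log2 change 2.06 at 24 h, adjusted p = 0.053 in limma), and with it the summed level of the list was 15.4 to 17.7 at 24 h, 8.90 to 11.3 at 10 D and 8.32 to 11.1 in C. The summed level of the other 8 markers, also taken after seeing the data, overlapped between the groups. It was 5.94 to 8.87 at 24 h, 7.59 to 8.31 at 10 D and 6.78 to 8.80 in C. A sum is set mostly by its brighter genes. For Myf5 and Myh8 all 24 h pools were above all C pools, with log2 changes of 1.04 and 0.57. Neither was called, and the remaining markers of the 8 overlapped between 24 h and C. Over all 9 the log2 changes at 24 h were 4 positive and 5 negative, with a median of -0.10. The summed level of 7 endothelial markers was 29.0 to 34.7 at 24 h, 21.4 to 25.7 at 10 D and 25.4 to 27.9 in C, with 0 called. Their median log2 change at 24 h was 0.15, and 1 of the 7 had an unadjusted p under 0.05 in limma, where 8.55% of all probesets had one. For Emcn and Esam all 24 h pools were above all C pools, which held for 9.6% of all probesets, and the other endothelial markers overlapped. Myog and the endothelial sum were thus higher at 24 h in the same pools as Tubb6 and Tubb5, and their part in the tubulin levels was not tested. Of the markers of dividing cells, 6 of 8 were above the filter, with Cdk1 and Ccnb2 below it, 0 were called, and the summed level was 3.72 to 5.77 at 24 h, 3.38 to 5.70 at 10 D and 4.12 to 5.69 in C. Of the neuron and Schwann cell markers, Nefm and Snap25 were below the filter, and the summed level was 11.6 to 12.9 at 24 h, 13.6 to 15.4 at 10 D and 10.3 to 18.6 in C. Summed levels of macrophage and leukocyte, fibroblast, adipocyte, red blood cell and skin markers overlapped between 24 h and C, with 0 genes called. Of 8 macrophage and leukocyte markers above the filter, 3 had an unadjusted p under 0.05 in limma at 24 h, in opposite directions. Cd68 was higher than in C, with a log2 change of 0.85. Ptprc and Cd79a were lower, at -0.99 and -0.97, and all 3 were without overlap. Their part in the tubulin levels was not tested either.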

How the data were processed

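Gracilis muscle mRNA of 9 pools was measured on 18 arrays. The authors summarised each array with MAS 5.0, and what they deposited are linear intensities, 1 per probeset, with medians that differ between arrays. The sources used here do not give the MAS 5.0 settings, so whether these intensities had been scaled is not known. Each signal was divided by its array's median, 18 signals of 0 were set to 0.05, and log2 values were taken. Each array type was fitted alone with limma 3.58.1 in R 4.3.3 (lmFit, eBayes with intensity trend) over the 3 groups, which follows the authors' 1-way model. Probesets under the 25th percentile of mean log2 signal (14.1 on MOE430A, 6.97 on MOE430B in signal units) were left out, and p-values were adjusted by the Benjamini-Hochberg method over both types and called under 0.1. The 100 probesets on both types were taken from MOE430A. Of 45037 probesets, 34945 have 1 gene symbol in the platform annotation, 932 several and 9160 none. The tubulin genes, the microtubule lists and the marker lists were chosen with earlier results of these data known. Text names all tubulin probesets, per microtubule list any called gene or else the gene with the largest log2 change, and the 5 probesets nearest to Tubb6. Marker lists are given by summed level and counts. The fit was also run on simulated data with independent noise in each probeset. These leave out departures that probesets of a pool share, so nothing is read from that run here. Separate pools held separate mice, per the study's methods. Promoter windows came from RefSeq (GRCm38.p6).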

Additional observations from a re-analysis of the deposited data

Results flagged for a closer look

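Tubb6 1416431_at is listed for a difference between the durations, with a 10 D minus 24 h log2 change of -3.71 (95% confidence interval -4.80 to -2.63) and all 3 of its 10 D pools below all 3 of its 24 h pools. The gene had been selected through its 24 h pools, which this comparison shares, and the probeset was above the filter only through its brighter pools, so the value is a description and no test of a difference between the durations. The limma fit over all 33752 probesets called it, and the call was lost without 24 h pool 1 or 3, without 10 D pool 1 or 3 and without any 1 of the C pools, with fewer pools behind the estimate of spread each time, and also without the intensity trend, without shared variance and with only the 10 D and 24 h pools in the fit. The other Tubb6 probeset, 1446353_at, had a 10 D minus 24 h log2 change of -0.03 (95% confidence interval -0.59 to 0.52).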

How the results depend on the processing

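Of 1050 log2 changes of single tubulin probesets over the 3 comparisons and the alternative fits, 8 moved by more than the residual SD and 0 called changes turned in sign. The largest such move was that of Tubb6 1416431_at at 24 h against C, 4.17 with 0.25 added to each level, against 5.09. The other 7 came with array weights, whose estimate stopped before it converged. With array weights 4 tubulin probesets were called at 24 h against C, 4 at 10 D against C, 4 at 10 D against 24 h and 6 by the F test, and 2 and 8 genes of the microtubule lists at 24 h and at 10 D against C. Without the intensity trend the counts were 0 at 10 D against 24 h and 1 by the F test, without shared variance 1 by the F test, and with only the 2 groups of a contrast 0 at 10 D against 24 h and 2 in the microtubule lists at 24 h (Clip1 and Tubb4b). Taking the brightest probeset of each gene gave 1 at 24 h against C and 0 at 10 D against 24 h, because Tubb6 is then represented by 1446353_at. With each pool left out in turn the counts of tubulin probesets ran from 1 to 3 at 24 h against C, stayed at 0 at 10 D against C, and ran from 0 to 1 at 10 D against 24 h and from 0 to 3 by the F test, and those of the microtubule lists ran from 0 to 2 at 24 h and stayed at 0 at 10 D. Both calls of the lists came without 10 D pool 2. Tubb5 1416256_a_at lost its call at 24 h without any 1 of the 24 h or C pools, while its log2 change ran only from 1.20 to 1.29 over all fits.

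Pool numbers are not stated to pair the pools, and departures of treated and C pools of the same number were uncorrelated (-0.07 to 0.05). Those of 10 D and 24 h pools of the same number correlated at 0.39, 0.56 and 0.10 for pools 1, 2 and 3 on MOE430A and at 0.11, 0.16 and 0.01 on MOE430B, and 5 and 4 of these 6 pools correlated best with their own number, a hint from the data and not from the design. With the pool number as a replicate block the counts were 2, 0 and 1 in the 3 comparisons and 1 by the F test, where Tubb5 was lost. Leaving out both treated pools numbered 2, chosen after seeing the data, gave 3 tubulin probesets at 24 h against C and 1 gene of the microtubule lists (Tubb4b). Raising dim signals to the filter, also chosen after seeing the data, changed no count of the tubulin probesets. Quantile and trimmed mean scaling, both other filters and adjustment within each array type also kept these counts. Signals near or below the filter, such as those of Tubb6 1416431_at in C and of Tubb3, limit what can be measured here.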

Other observations

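The following probesets were chosen after their values were seen. Probesets of the beta-tubulin Tubb4b, whose 1423642_at had a log2 change of 1.32 at 24 h against C, were not alike. Tubb4b 1456470_x_at had all 24 h pools above all C pools, with a log2 change of 0.91, and 1438622_x_at, 1439416_x_at and 1456078_x_at overlapped, with changes of 0.36, 0.06 and -0.41. Myh8, the perinatal myosin heavy chain, was the satellite cell and myoblast marker with the largest difference at 10 D, with levels of 1.07, 1.64 and 1.30 in the 10 D pools against 0.481, 0.511 and 0.341 in the C pools, a log2 change of 1.59 (adjusted p = 0.55 in limma). Its 24 h levels, 0.589, 0.602 and 0.771, were between those groups.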
